A study of Homo sapiens with 8 samples.

Results

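The prostate kallikreins KLK2, KLK3, KLK4 and KLK15 and the membrane serine protease TMPRSS2 were followed in LNCaP cells, an established line from a human prostate carcinoma metastasis. They were taken by gene name and are 5 of the 36474 genes in the count table. The rule itself uses no measured value, but the 5 genes were chosen with earlier results of these data known. All 5 were present, and all 5 were among the 21071 genes that passed the filter on low counts. RNA sequencing covered 8 libraries: 2 at 0 h, 3 at 12 h and 3 at 24 h. In every group the labels give ASPN (recombinant asporin, a secreted matrix protein) at 100 ng/mL as the treatment, and before it the cells spent 6 to 12 h in medium without serum or calcium. Untreated cells at 12 or 24 h were not analysed here, so ASPN and time in the medium cannot be told apart. LNCaP cells were grown without stroma, which limits them as a model of a tumour. One 0 h library carries a replicate number that no 0 h label has, and it is called the unnumbered 0 h library.

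Kallikreins are secreted serine proteases encoded side by side in a large cluster. KLK3 is prostate-specific antigen, and KLK2, its closest relative, can activate the KLK3 proenzyme. KLK4 and KLK15 are further members made in the prostate, and KLK15 can also cleave the KLK3 proenzyme. TMPRSS2 is a type II transmembrane serine protease, anchored at the cell surface, and its regulatory region is the one most often joined to an ETS factor gene in prostate cancer. In the prostate KLK2, KLK3 and TMPRSS2 are textbook androgen-responsive genes. An androgen response element in DNA is an inverted repeat of a short hexamer.

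Levels of 4 of the 5 genes were called higher at both later times than at 0 h, where 4.85% of all tested genes were called higher at 12 h and 7.82% at 24 h. KLK3 rose most by 12 h, to 1.40-fold, and stood at 1.24-fold at 24 h. KLK2, KLK4 and TMPRSS2 rose to between 1.18-fold and 1.31-fold at these times. KLK15 was at a low level and passed no test. In such bulk samples more expressing cells and more RNA per cell cannot be told apart. None of the 5 genes reached the study's threshold of a 1.5-fold change with an adjusted p of 0.05, which 1.05% of all tested genes passed at 12 h and 2.45% at 24 h. The TMPRSS2 calls and the KLK2 call at 24 h were lost when 0 h replicate 1 was left out.

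Library totals ran from 73406825 to 96962135 counts, and mitochondrial genes took 6.20% to 7.32% of them. Levels are given in CPM, which are counts divided by the TMM-adjusted library size. LNCaP identity was checked with 7 luminal epithelial markers. All 7 had counts in every library, with summed levels of 3642 to 3653 CPM at 0 h, 3669 to 3749 at 12 h and 3939 to 3986 at 24 h. The 3 basal markers summed to 0.0681 to 0.229 CPM and the 4 leukocyte markers to 0.0259 to 0.477 CPM over all libraries. The 6 fibroblast markers summed to 20.4 to 23.2 CPM. Most of that sum was COL1A1, with 1389 to 1826 counts a library. LUM had 86 to 161 counts, COL3A1 35 to 67, DCN 0 to 5 and PDGFRA 0 to 4, and COL1A2 had no row. The 3 endothelial markers summed to 14.8 to 17.3 CPM at 0 h, 13.5 to 15.2 at 12 h and 11.2 to 13.3 at 24 h. Nearly all of this was VWF, which was called lower at 24 h than at 0 h (log2 change -0.38, SE 0.085, adjusted p = 0.00175, edgeR), while the defining markers PECAM1 and CDH5 had 0 to 2 and 0 to 5 counts a library. The luminal sum was thus above its 0 h range at 12 h and again at 24 h, and its part in the results was not tested. FOLH1 was the largest part of it, at means of 1800, 1700 and 1970 CPM at 0, 12 and 24 h. At 24 h KRT18 was called lower than at 0 h (log2 change -0.14, adjusted p = 0.0212, edgeR), and the other luminal markers were called higher.

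KLK3 (ENSG00000142515.15) lies on chromosome 19 at 50854915 to 50860764, plus strand, of GRCh38. KLK2 (ENSG00000167751.13) follows it at 50861568 to 50880567, also on the plus strand. Their promoters are shown because they are the only pair of the 4 kallikrein promoters that resemble each other over most of their length, and because both hold an element-like window at nearly the same distance from the start. Both sequences come from RefSeq on GRCh38.p14 and run from 250 bases before to 50 bases after the annotated start. The capitals mark the 15-base window closest to the palindromic androgen response element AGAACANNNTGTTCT. The first stretch is chr19:50854665-50854964 and the second chr19:50873189-50873488, both on the plus strand. The KLK2 stretch lies inside the span of the counted KLK2 gene, which begins at 50861568, and not before it.
KLK3: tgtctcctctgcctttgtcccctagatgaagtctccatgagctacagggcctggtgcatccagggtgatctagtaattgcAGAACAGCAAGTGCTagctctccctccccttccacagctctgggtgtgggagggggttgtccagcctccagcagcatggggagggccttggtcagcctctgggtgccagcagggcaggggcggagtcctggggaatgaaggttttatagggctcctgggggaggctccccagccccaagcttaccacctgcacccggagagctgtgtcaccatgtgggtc
KLK2: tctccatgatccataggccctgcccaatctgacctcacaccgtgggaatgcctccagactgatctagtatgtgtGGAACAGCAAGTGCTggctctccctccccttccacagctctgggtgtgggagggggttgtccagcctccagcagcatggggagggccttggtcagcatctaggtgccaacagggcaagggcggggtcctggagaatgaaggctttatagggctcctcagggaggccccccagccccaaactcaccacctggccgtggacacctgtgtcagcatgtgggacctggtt

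The KLK3 window, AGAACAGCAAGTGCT, lies at 50854745 to 50854759, which is position -170 to -156 from the start. It matches 10 of the 12 specified letters of the element, and 1.41% of 35116 promoters of this length hold a window with as few mismatches. The KLK2 window, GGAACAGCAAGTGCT, lies at 50873263 to 50873277, at position -176 to -162. It matches 9 of 12 letters, a score that 10.8% of promoters reach. The 2 windows differ by A1G, with KLK3 first and positions counted from the 5′ end of the window. The difference falls in the hexamer AGAACA, which the KLK3 promoter holds and the KLK2 promoter does not hold on either strand. AGAACA was found on either strand in 14.8% of promoters.

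The 2 promoters were identical at 246 of 290 aligned bases (84.8%), with a longest identical run of 80 bases. Every other pair among the kallikrein promoters was 52.7% to 63.0% identical. The best windows of KLK4 and KLK15, which have 2 RefSeq starts each, had 5 or more mismatches, a score reached by 89.2% of promoters or more. A RefSeq promoter was matched for 4 of the 5 genes, and TMPRSS2 is named only. These matches describe letters in a window, and no binding was measured.

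KLK3 had the most counts of the 5 genes and, per exon length, the highest level. It stood at 912 CPM in 0 h replicate 1 and 1018 CPM in the unnumbered 0 h library, at 1386, 1320 and 1361 CPM in 12 h replicates 1, 2 and 3, and at 1183, 1132 and 1267 CPM in 24 h replicates 1, 2 and 3. The groups did not overlap in any of the 3 comparisons: the 12 h libraries were highest, the 24 h libraries were intermediate and the 0 h libraries were lowest. Among all tested genes, 17.3% lay wholly above 0 h at 12 h, 21.5% lay wholly above 0 h at 24 h, and 9.33% were wholly lower at 24 h than at 12 h.

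From a mean of 965 ± 75.4 CPM (SD, n = 2) at 0 h, KLK3 rose to 1356 ± 33.3 CPM (n = 3) at 12 h. The log2 change was 0.49 (SE 0.048, adjusted p = 3.37e-08, edgeR quasi-likelihood test), the 15th smallest p of all genes. At 24 h the level was 1194 ± 68.1 CPM (n = 3), a log2 change from 0 h of 0.31 (SE 0.048, adjusted p = 1.71e-05, edgeR).

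KLK3 was also the only one of the 5 genes called between 12 and 24 h. It fell by 0.18 on the log2 scale (SE 0.043, adjusted p = 0.0129, edgeR), where 1.61% of all genes were called lower and 1.12% higher. This call was lost when 12 h replicate 3 (adjusted p = 0.0663), 24 h replicate 1 (adjusted p = 0.0912) or 24 h replicate 2 (adjusted p = 0.163) was left out. The log2 change stayed between -0.23 and -0.15 over the 8 fits that each left out 1 library.

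KLK2 followed the same order of times at a lower count. Its level was 166 and 182 CPM in the 0 h libraries (replicate 1, then unnumbered), 246, 211 and 225 CPM in 12 h replicates 1 to 3, and 206, 193 and 217 CPM in 24 h replicates 1 to 3. Both later groups lay wholly above 0 h, while the 12 h and 24 h ranges overlapped because 12 h replicate 2 was below 24 h replicate 3. The group means were 174 ± 11.4 (n = 2), 227 ± 17.8 and 205 ± 12.3 CPM (n = 3 each).

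By the edgeR test KLK2 rose by 0.39 on the log2 scale at 12 h (SE 0.057, adjusted p = 2.12e-05), while the 24 h rise was 0.24 (SE 0.057, adjusted p = 0.00307). Without 0 h replicate 1 the 24 h change was 0.17 and its adjusted p was 0.183. The change from 12 to 24 h was -0.15 (SE 0.050, adjusted p = 0.129, 95% interval -0.25 to -0.044). It passed the threshold without 12 h replicate 2 (adjusted p = 0.0191), with no filter on low counts (adjusted p = 0.0284) and in a fit of the 7 numbered libraries with the replicate number as a block (adjusted p = 0.0119, against 0.109 in the same libraries without the block). Whether KLK2 fell between 12 and 24 h thus depends on these choices.

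Whether KLK2 and KLK3 share reads was not measured. Their canonical transcripts were 77.9% identical over 1519 aligned bases, which is 99.6% of the KLK3 transcript and 52.8% of that of KLK2. How any reads that fit both were counted is not given in the sources used here. The other close relative, KLK1, held 37 counts over all 8 libraries.

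KLK4 (ENSG00000167749.11; chromosome 19, 50906352 to 50910738, minus strand) lies beyond KLK2 in the cluster. Its level was 74.9 and 81.4 CPM at 0 h (replicate 1, then unnumbered), 101, 95.7 and 94.5 CPM in 12 h replicates 1 to 3, and 102, 94.4 and 101 CPM in 24 h replicates 1 to 3. All 6 later libraries lay above both 0 h libraries, and the later groups covered nearly the same range. KLK4 rose by 0.31 on the log2 scale at 12 h (SE 0.052, adjusted p = 7.74e-05, edgeR), while the 24 h rise was 0.34 (SE 0.052, adjusted p = 9.46e-06). Both calls held in each of the 8 fits that left out 1 library. The change from 12 to 24 h was 0.030 (SE 0.046, adjusted p = 0.849), with a 95% interval of -0.064 to 0.12.

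TMPRSS2 (ENSG00000184012.14) lies on chromosome 21 at 41464300 to 41531116, minus strand. Its level was 42.3 and 48.4 CPM at 0 h (replicate 1, then unnumbered), 53.5, 54.4 and 52.3 CPM in 12 h replicates 1 to 3, and 56.0, 50.7 and 56.5 CPM in 24 h replicates 1 to 3. As for KLK4, the later libraries all lay above 0 h and overlapped each other, but the unnumbered 0 h library came close to 24 h replicate 2. TMPRSS2 rose by 0.24 on the log2 scale at 12 h (SE 0.060, adjusted p = 0.00724, edgeR), while the 24 h rise was 0.26 (SE 0.060, adjusted p = 0.00176). Without 0 h replicate 1 these changes were 0.14 (adjusted p = 0.342) and 0.16 (adjusted p = 0.166), so both calls rest on that library. Between 12 and 24 h the change was 0.026 (SE 0.053, adjusted p = 0.889, 95% interval -0.081 to 0.13).

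The exons of TMPRSS2 share 562 bases (8.53% of its exon length) with MX1, an interferon-induced gene on the other strand. MX1 held 2466 counts over all libraries against 34923 for TMPRSS2. MX1 passed no test, with log2 changes of 0.094 at 12 h (adjusted p = 0.750, edgeR) and 0.19 at 24 h (adjusted p = 0.418). Whether the counting used strand is not given in the sources used here.

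KLK15 (ENSG00000174562.13; chromosome 19, 50825289 to 50837213, minus strand) was the one gene of low level, with 151 to 248 counts a library. It stood at 1.71 and 2.65 CPM at 0 h (replicate 1, then unnumbered), 2.75, 2.37 and 2.84 CPM in 12 h replicates 1 to 3, and 2.07, 2.47 and 2.22 CPM in 24 h replicates 1 to 3. The gap between the 2 libraries at 0 h spanned the whole range at 24 h and most of that at 12 h. At 12 h its log2 change was 0.29 (SE 0.18, adjusted p = 0.360, edgeR, 95% interval -0.082 to 0.66). At 24 h it was 0.054 (SE 0.18, adjusted p = 0.897, interval -0.32 to 0.43). These intervals include the changes of the other 4 genes at the same time, so a change of their size could not be told from none. The coefficient of variation of KLK15 was 30.4% between the 0 h libraries, 9.47% at 12 h and 9.09% at 24 h. The log2 changes were -0.0024 at 12 h and -0.24 at 24 h when 0 h replicate 1 was left out.

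**Figure D1:**
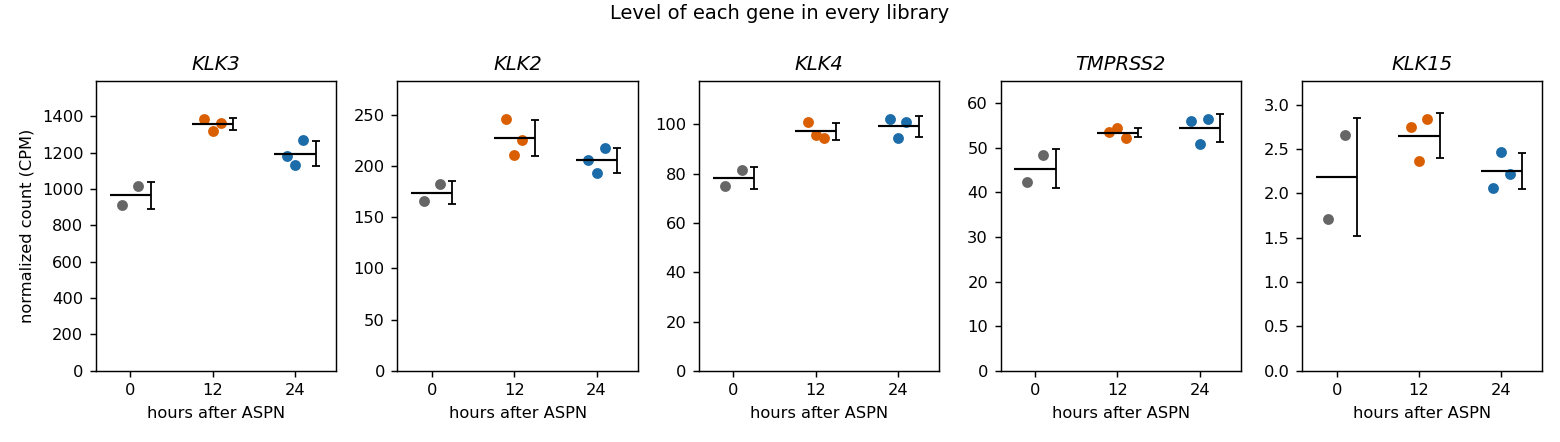
Normalized counts (CPM, TMM-scaled, vertical axes from 0) of each gene in every library against hours after ASPN. Points are libraries, horizontal lines group means and bars 1 SD (n = 2 at 0 h, n = 3 later); KLK3, KLK2, KLK4 and TMPRSS2 lie above both 0 h points at 12 and 24 h, and KLK15 overlaps.

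The libraries at 0 h were not equal. Replicate 1 was the lowest of all 8 libraries for all 5 genes. The unnumbered library was the next lowest for KLK3, KLK2, KLK4 and TMPRSS2, but for KLK15 it lay below only 2 of the 12 h libraries. Every log2 change from 0 h was therefore shifted downward when replicate 1 was left out, to below 0 for KLK15. For KLK3 the log2 change without it was 0.41 at 12 h and 0.22 at 24 h, and both calls held (adjusted p = 3.89e-05 and 0.00742, edgeR). Without it, 3 of the 5 genes were called at 12 h and 2 at 24 h, in place of 4 each. No residual spread is left at 0 h in that fit, and the remaining library is assumed to vary like the other groups.

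**Figure D2:**
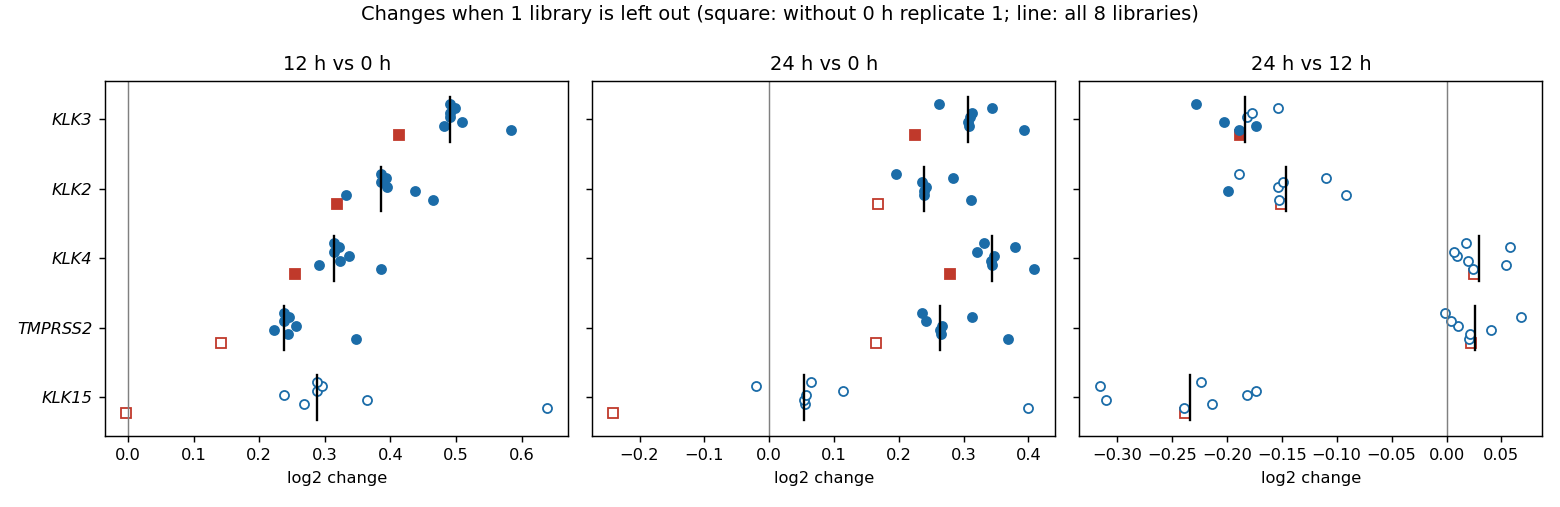
Log2 change of each gene (horizontal axes, 1 panel per comparison) in the 8 fits that each left out 1 library. Red squares are fits without 0 h replicate 1, blue circles the other 7, filled symbols have an adjusted p of at most 0.05 and black lines give the value with all 8 libraries; the red squares lie at the low end of both comparisons with 0 h.

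In a test of any difference among the 3 times, 16.4% of all genes were called. KLK3 (adjusted p = 2.90e-08, edgeR), KLK4 (1.73e-05), KLK2 (3.86e-05) and TMPRSS2 (0.00350) were among them, and KLK15 was not (0.436). The median log2 change over all tested genes was within 0.0035 of 0 in each comparison. That of KLK3 at 12 h was larger than 91.7% of all log2 changes, and those of the other 4 genes lay between the 82.1 and 89.0 percentiles. None of the 5 genes passed the study's threshold between 12 and 24 h either, where 0.18% of all genes did.

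**Figure D3:**
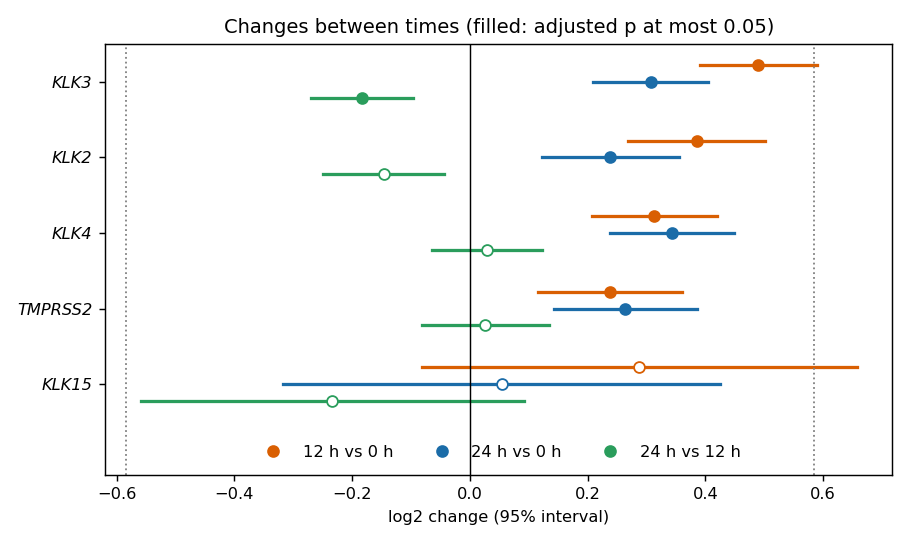
Log2 change of each gene with its 95% interval for 12 h against 0 h (orange), 24 h against 0 h (blue) and 24 h against 12 h (green). Filled points have an adjusted p of at most 0.05 and dotted lines mark a 1.5-fold change; no point lies beyond them.

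Whether the genes changed in step was examined through the ratio of their counts within a library, which needs no scaling between libraries. The ratio of KLK3 to TMPRSS2 was 21.6 and 21.1 at 0 h, 25.9, 24.3 and 26.0 at 12 h, and 21.1, 22.3 and 22.4 at 24 h. The 12 h libraries lay wholly above the other 5, and 0 and 24 h overlapped. The ratio of KLK3 to KLK4 behaved alike, at 12.2 and 12.5, then 13.7, 13.8 and 14.4, then 11.6, 12.0 and 12.6. Among all tested genes the levels of 10.3% lay wholly higher at 24 h than at 12 h, the opposite order to KLK3. That is a share of single-gene levels, and no such share was counted for ratios.

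Over the 10 pairs of genes an exact permutation test on the log2 ratio (560 arrangements of the libraries, smallest possible p 0.00357) gave p = 0.0143 for KLK3/TMPRSS2 and p = 0.0179 for KLK3/KLK4. Both had a Benjamini-Hochberg adjusted p of 0.0893 in this exact permutation test, so no pair passed the threshold. The mean log2 ratio of KLK3 to TMPRSS2 was 0.25 higher at 12 h than at 0 h, and that of KLK3 to KLK4 was 0.18 higher. KLK2 to KLK4 had p = 0.0357 (adjusted p = 0.119) and KLK2 to KLK3 p = 0.157 (adjusted p = 0.314) in the same exact permutation test. Different time courses for KLK3 and for KLK4 or TMPRSS2 were thus not shown by this test.

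**Figure D4:**
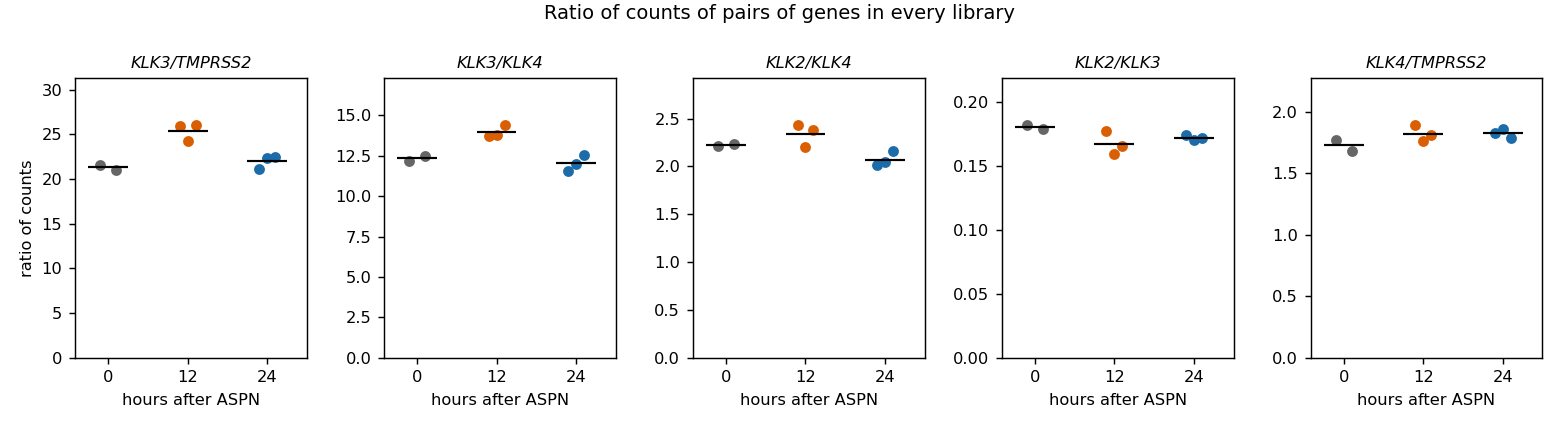
Ratio of the counts of 5 pairs of genes in every library (vertical axes from 0) against hours after ASPN, with group means as lines. KLK3/TMPRSS2 and KLK3/KLK4 are higher in the 3 libraries at 12 h than in the other 5.

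Compared per length, as CPM per kilobase of all exons of a gene, KLK3 was at 197 to 299 over the 8 libraries and ranked between 96 and 142 of 36397 genes. KLK4 followed at 37.4 to 51.0 and KLK2 at 26.1 to 38.7. TMPRSS2 was at 6.41 to 8.57 and KLK15 at 0.55 to 0.91. The order of KLK2 and KLK4 depended on the length used. Per kilobase of the canonical transcript KLK2 was at 58.7 to 87.0 and KLK4 at 52.9 to 72.2, ranges that overlap, while KLK3, TMPRSS2 and KLK15 kept their places.

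The 5 genes together supplied 0.118% and 0.132% of all counts at 0 h, 0.180%, 0.169% and 0.175% at 12 h, and 0.156%, 0.147% and 0.164% at 24 h. The 12 h libraries were highest and the 0 h libraries lowest, without overlap. KLK3 made up 76.2% to 78.4% of that sum. The 95% Wilson intervals reached at most 0.00095 percentage points to either side of the shares of all counts, and 0.267 points for the KLK3 share. These intervals leave out the spread between libraries, and those of the 0 h libraries, at 0.118% and 0.132%, did not meet. Reads, not tagged molecules, were counted and several reads can come from 1 molecule. The intervals can therefore be too narrow even for counting error.

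The genes whose levels ran most alike with each of the 5 were ranked by Pearson r of log2(CPM + 1) over the 8 libraries, among 11583 protein-coding genes. Nearest to KLK3 were H2AX (a histone variant, r = 0.985), BCS1L (a mitochondrial chaperone of respiratory complex III, r = 0.981) and UQCRC1 (a core subunit of complex III, r = 0.971). Nearest to KLK2 were UQCRC1 (r = 0.996), PKM (pyruvate kinase, r = 0.989) and TMEM134 (r = 0.974), with KLK3 in place 10 (r = 0.964). KLK2 was in place 7 for KLK3. Pearson r does not compare the sizes of changes: at 12 h the log2 change of UQCRC1 was 0.098, against 0.39 for KLK2. All these libraries share 3 time points, so such values describe the ranking and no more.

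Nearest to KLK4 were HYAL2 (a hyaluronidase, r = 0.988), NOL3 (r = 0.987) and PIGQ (an enzyme of GPI anchor synthesis, r = 0.985). Nearest to TMPRSS2 were PML (the scaffold of PML nuclear bodies, r = 0.989), ARHGEF18 (a guanine nucleotide exchange factor, r = 0.988) and FUT10 (r = 0.978), with KLK4 in place 24 (r = 0.953). KLK2 and KLK3 thus ranked high for each other. KLK4 ranked high for TMPRSS2, while TMPRSS2 was in place 133 for KLK4. KLK15 was nearest to GDPGP1 (r = 0.957), MAGEA12 (r = 0.932) and FANCG (r = 0.929), and its highest r with one of the other 4 genes was 0.624.

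Among the other kallikreins of the cluster, 10 of the 12 listed genes had a row in the table and 3 passed the filter, and none of the 3 was called in any comparison. Their median log2 changes were -0.27, -0.96 and -0.69 for 12 h against 0 h, 24 h against 0 h and 24 h against 12 h. Each of these medians is the value of KLK12, which had only 3 to 22 counts a library and SEs of 0.63 to 0.69. KLKP1, a kallikrein pseudogene, had 77 and 70 counts at 0 h, 126, 106 and 132 at 12 h, and 65, 96 and 68 at 24 h. At 12 h it differed from 0 h by 0.65 on the log2 scale (SE 0.24, adjusted p = 0.0819, edgeR), and the change was -0.72 from 12 to 24 h (SE 0.21, adjusted p = 0.0652). The remaining tested gene, KLK14, had 4 to 25 counts a library. Of the genes within 100 kb of the 5, 4 were tested. Only CLEC11A, which encodes a secreted lectin-domain growth factor, was called, at a log2 change of 0.27 at 24 h (SE 0.075, adjusted p = 0.00933). At 24 h 7.82% of all tested genes were called higher than at 0 h.

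Of 11 other type II transmembrane serine proteases tested, 1 was called at each later time against 0 h and none between 12 and 24 h. It was ST14 (matriptase), which rose by 0.26 on the log2 scale at 12 h (SE 0.047, adjusted p = 2.70e-04, edgeR), and its 24 h rise was 0.27 (SE 0.047, adjusted p = 1.02e-04). The list's median changes were 0.043 and -0.023. Of all tested genes, 4.85% were called higher at 12 h and 7.82% at 24 h against 0 h. Of 8 tested substrates, SCNN1A, the alpha subunit of the epithelial sodium channel, was the only one called. It rose by 0.39 at 12 h (SE 0.052, adjusted p = 3.94e-06), and its 24 h rise was 0.36 (SE 0.052, adjusted p = 4.40e-06), against list medians of 0.11 and -0.10.

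Of 6 inhibitors tested, SERPINA1 (alpha-1-antitrypsin) fell by 0.88 on the log2 scale at 12 h (SE 0.28, adjusted p = 0.0345, edgeR) and fell by 1.14 at 24 h (SE 0.28, adjusted p = 0.00395). It had 39 to 104 counts a library. At 12 h and 24 h against 0 h, 6.75% and 8.49% of all genes were called lower. At 24 h against 0 h 7.82% were called higher, and 1.61% were called lower at 24 h than at 12 h. SPINT1, an inhibitor of matriptase, rose by 0.16 at 24 h (SE 0.045, adjusted p = 0.0115). SPINK1, a secreted trypsin inhibitor, was called lower at 24 h than at 12 h (adjusted p = 0.0394) on 0 to 26 counts a library. The list's median changes were 0.043, 0.063 and 0.037 in the 3 comparisons.

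The other androgen-responsive genes did not move in one direction. Of 20 tested, 2 rose and 2 fell at 12 h (median log2 change 0.033), 5 rose and 4 fell at 24 h against 0 h (median -0.043), and 3 rose and 3 fell between 12 and 24 h (median 0.0079). Of all tested genes, 4.85% were called higher and 6.75% lower at 12 h against 0 h. The shares were 7.82% and 8.49% at 24 h against 0 h, and 1.12% and 1.61% between 12 and 24 h. ZBTB10, a zinc finger gene, fell by 0.27 at 12 h (adjusted p = 9.14e-04, edgeR), while C1orf116 rose by 0.19 (adjusted p = 0.00766). ACP3, prostatic acid phosphatase, was at 0.039 at 12 h (adjusted p = 0.727) and rose by 0.30 at 24 h (adjusted p = 9.27e-05). CAMKK2, a calcium-dependent kinase, rose by 0.25 at 24 h (adjusted p = 2.07e-04).

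SLC45A3 (prostein) rose by 0.17 at 12 h (adjusted p = 0.0108, edgeR) and fell by 0.32 from 12 to 24 h (adjusted p = 5.00e-06). Its 24 h level was lower than at 0 h, with a log2 change of -0.15 (adjusted p = 0.0140). STEAP2, a metalloreductase, showed the reverse order, with -0.17 at 12 h (adjusted p = 0.0126) and 0.24 from 12 to 24 h (adjusted p = 8.75e-04). Of the 4 ETS factors found joined to TMPRSS2 in prostate cancer, 3 were tested. ETV1 fell by 0.22 at 12 h (SE 0.047, adjusted p = 0.00199) and fell by 0.21 at 24 h (SE 0.047, adjusted p = 0.00190).

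**Figure D5:**
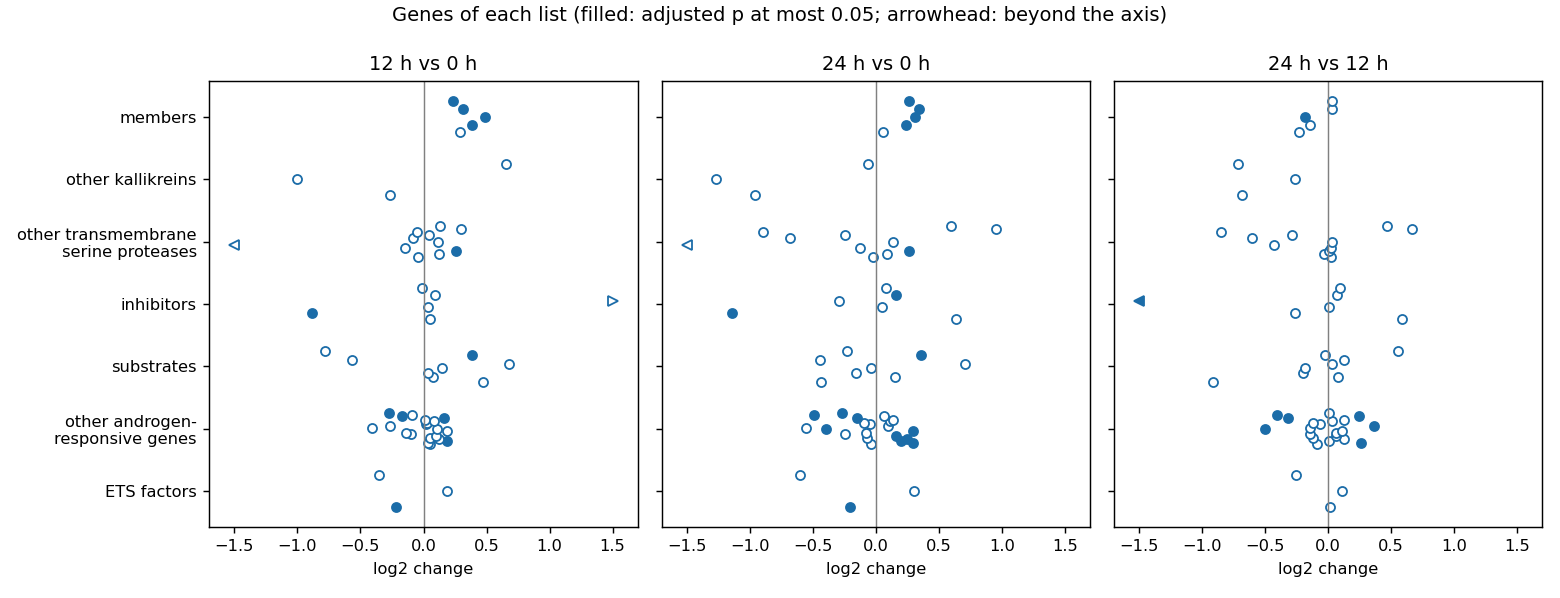
Log2 change (horizontal axes, 1 panel per comparison) of the 5 genes (top row, members) and of each tested gene of 6 other lists described above. Filled points have an adjusted p of at most 0.05 and arrowheads stand for changes larger than 1.5; called genes of the androgen-responsive list lie on both sides of 0.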

How the data were processed

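Total RNA from LNCaP cells was sequenced as paired-end TruSeq mRNA libraries. According to the methods, the authors trimmed adapters with Cutadapt 4.5, aligned reads with STAR 2.7.11a to GRCh38.p13 and counted them per gene with featureCounts 2.0.2, leaving out a time-0 library for quality. The deposited values are these raw counts, with no normalization. The strand and multi-mapping options are not given in the sources used here.

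The 5 genes, the gene lists and the tests were chosen with earlier results of these data known. In edgeR 4.0.16 (R 4.3.3), counts of all 8 libraries entered glmQLFit (robust) and glmQLFTest, with TMM factors, filterByExpr and a coefficient per time, adjusting over all 21071 tested genes by Benjamini-Hochberg. A gene was called at an adjusted p of at most 0.05, and the study's threshold added a fold change of 1.5. The test was checked on simulated counts. SEs came from the fold change and F. The biological coefficient of variation was 5.59%. The labels call the replicates biological and the cells were plated in replicate wells. Whether the wells came from separate passages is not given in the sources used here, so p-values cover the spread between these libraries. Statistics per degree of freedom of a chi-square test between replicates were 5.10 to 13.8, so each library was counted once. Exon lengths came from GENCODE release 44. Alternatives were other scalings, filters and gene sets, a replicate block, leaving out each library, and DESeq2 1.42.0.

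Named genes were the 5 genes, the 2 of each list with the smallest p among those called in a comparison, tested neighbours, and the 3 protein-coding genes (mean normalized count 100 or more) whose levels correlated best with each of the 5. No column of sample values was left unused. One further gene list and some of the genes this rule gives are not reported here.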

Additional observations from a re-analysis of the deposited data

How the results depend on the processing

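Over 255 refits of single changes in the 5 genes, 242 kept their direction and side of the threshold, 6 lost the call, 3 gained one and 4 turned in sign. The cause of these was not tested. The fit with the replicate number as a block also left out the unnumbered 0 h library. In it 1 of the 5 genes reached 1.5-fold with an adjusted p of 0.05 at 12 h (KLK3, log2 change 0.59), in place of 0. Most of that move came with the library left out, since the same 7 libraries without a block gave 0.58 and all 8 libraries 0.49. In the block fit 2 genes were called between 12 and 24 h in place of 1. KLK2 was then called between these times at -0.15, as it was with no filter on low counts (-0.15, 2 genes called). Leaving out each library in turn gave 0 to 2 called genes between 12 and 24 h and 2 to 4 at 24 h against 0 h.

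In the fits without 1 library, the KLK15 change was -0.0024 to 0.64 at 12 h, where -0.0024 came without 0 h replicate 1, and -0.24 to 0.40 at 24 h, with -0.020 without 24 h replicate 2. TMPRSS2 ran from 0.14 to 0.35 at 12 h, from 0.16 to 0.37 at 24 h and from -0.0011 to 0.068 between 12 and 24 h. KLK2 ran from 0.17 to 0.31 at 24 h and from -0.20 to -0.092 between 12 and 24 h, and KLK3 between these times from -0.23 to -0.15. DESeq2 and the other scalings changed no call of the 5 genes. No pair ratio passed 0.05 under any alternative. With 1 library left out fewer arrangements remain, and a single pair could then not pass after adjustment whatever its values. The called genes of the lists stayed within 1.5 times their counts under 2 other scalings.

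Deviations of same-numbered 12 and 24 h libraries correlated weakly, at 0.13, 0.032 and 0.028. Those of differently numbered libraries correlated at -0.12 to 0.088, and 0 h was not in this check. Whether replicate numbers mark paired samples is thus not settled. In the 7 numbered libraries the block moved the calls over all genes from 2761 to 3498 at 12 h, from 3342 to 3706 at 24 h and from 677 to 962 between 12 and 24 h, against 2443, 3437 and 574 in all 8 libraries. With 2 libraries at 0 h, and at most 248 counts of KLK15, changes of KLK15 within its intervals could not be told from none.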
